A study of Homo sapiens with 18 samples.

Results

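The nuclear-encoded subunits of the respiratory chain and ATP synthase were followed across 6 conditions of LNCaP cells. Members were chosen by gene symbol: the NDUFA, NDUFB, NDUFC, NDUFS and NDUFV families, the 4 SDH genes, symbols that begin with UQCR, the COX4 to COX8 symbols that carry no I or L isoform mark, and ATP synthase genes of the ATP5 series. The rule matched 80 of the 20145 genes in the count table, and 79 had enough counts to be tested. Complex I held 36 of the 80, complex II 4, complex III 10, complex IV 12 (11 tested) and complex V 18, with NDUFA4 placed in complex IV, where its protein is now known to sit. COX6B2, a testis-associated isoform of a complex IV subunit, was the member not tested, with 29 counts over all 18 libraries. The rule also took in 4 copies or read-throughs (UQCRBP1, a pseudogene, UQCRHL, ATP5MGL and ATP5MF-PTCD1), and left out subunits whose symbols follow another pattern, among them CYC1, COX4I1, NDUFAB1, and ATP5MPL and ATP5MD, which are older symbols of ATP5MJ and ATP5MK.

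LNCaP is an established human prostate adenocarcinoma line that expresses the androgen receptor and grows as luminal-type cells. Cells were kept in serum-containing RPMI medium and exposed for 72 h, with 3 libraries in each of the 6 groups. DMSO was the vehicle. ACBI was given at the lowest dose, 0.2 µM, followed by 2-77 (1 µM), BD98 (2 µM), and P-16 and ENZA (10 µM each). ENZA is enzalutamide, an androgen receptor antagonist used against prostate cancer. The series title names selective bromodomain inhibitors of BRD7, a subunit of a chromatin remodelling complex, in prostate cancer. The labels give the other agents by code name only, so no structure or target is stated for them here, and doses differ between compounds. All libraries came from 1 cell line, and the labels do not say whether replicates were separate cultures, so p-values measure only the spread between these libraries.

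The respiratory chain moves electrons from NADH (complex I) and succinate (complex II) through ubiquinone, complex III and cytochrome c to oxygen at complex IV. Complexes I, III and IV pump protons across the inner mitochondrial membrane, and complex V, the ATP synthase, lets them flow back through its c-ring while its F1 head makes ATP. Most subunits are encoded in the nucleus, and a few core ones of complexes I, III, IV and V are encoded in mitochondrial DNA; those genes were not analysed here. Normal prostate epithelium restrains its citric acid cycle to secrete citrate, and prostate carcinoma cells are known to rely more on oxidative metabolism.

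Library totals ran from 16835113 to 36975052 counts, and 3 counts equalled between 0.0811 and 0.178 CPM (counts scaled to a common library size) in a library. ACBI replicate 3 held 8.60% of its counts in ribosomal RNA genes, against 0.639% to 2.09% in the other 17 libraries. Counts over all members and for complexes I and IV, and some single calls, are therefore also given without it. Other sums, shares and lists for ACBI include it. The summed level of 8 luminal prostate genes was 9117 to 9199 CPM with DMSO and 4040 to 6757 CPM with the 5 compounds, lowest with ACBI. Of the markers of fibroblasts, immune, endothelial and basal cells, 8 had a row; DCN, LUM, PTPRC, LYZ and PECAM1 stayed at or under 0.335 CPM, and their summed level of 13.3 to 71.3 CPM came mainly from VWF and COL1A1. The part of these differences in the results on respiratory genes was not tested.

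Promoters of 4 members are shown because they belong to the genes with the largest changes. They are the largest rises with ACBI (NDUFC1 and NDUFB1), a large fall with ACBI (ATP5MC1) and NDUFB4, which rose with every compound and was added after its values were seen. ATP5F1D, the member with the largest called fall with ACBI, is named only. Each run covers 250 bases before and 50 after the RefSeq start on GRCh38.p14 and is written from 5′ to 3′ on the gene's strand. Capitals mark matches to 6 motifs, searched on both strands: GCGCA, any base and GCGC (NRF1), CCGGAAG (GABPA), AAGATGG (YY1), CAAGGTCA (ESRRA), CACGTG (E-box) and CCAAT. NRF1, GABPA, YY1 and ESRRA are regulators long linked to genes of mitochondrial respiration. The windows are chr4:139302502-139302801 on the minus strand for NDUFC1, chr14:92121657-92121956 on the minus strand for NDUFB1, chr17:48892537-48892836 on the plus strand for ATP5MC1, and chr3:120596086-120596385 on the plus strand for NDUFB4.
NDUFC1: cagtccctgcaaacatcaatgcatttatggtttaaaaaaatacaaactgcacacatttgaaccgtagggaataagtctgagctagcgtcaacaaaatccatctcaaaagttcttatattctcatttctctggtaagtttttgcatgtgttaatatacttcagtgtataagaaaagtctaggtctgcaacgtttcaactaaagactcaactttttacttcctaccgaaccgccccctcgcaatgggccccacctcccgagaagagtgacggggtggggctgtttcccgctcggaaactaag
NDUFB1: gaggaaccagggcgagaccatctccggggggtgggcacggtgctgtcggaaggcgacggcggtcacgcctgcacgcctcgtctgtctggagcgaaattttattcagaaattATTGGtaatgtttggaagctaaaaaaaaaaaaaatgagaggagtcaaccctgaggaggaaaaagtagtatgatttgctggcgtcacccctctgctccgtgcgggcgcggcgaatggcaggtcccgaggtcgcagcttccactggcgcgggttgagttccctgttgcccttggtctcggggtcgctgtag
ATP5MC1: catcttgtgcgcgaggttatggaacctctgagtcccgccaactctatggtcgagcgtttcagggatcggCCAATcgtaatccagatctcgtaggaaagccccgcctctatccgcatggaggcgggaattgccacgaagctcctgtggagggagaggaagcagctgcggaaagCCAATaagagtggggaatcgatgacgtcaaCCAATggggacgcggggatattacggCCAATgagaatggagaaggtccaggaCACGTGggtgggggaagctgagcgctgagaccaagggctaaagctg
NDUFB4: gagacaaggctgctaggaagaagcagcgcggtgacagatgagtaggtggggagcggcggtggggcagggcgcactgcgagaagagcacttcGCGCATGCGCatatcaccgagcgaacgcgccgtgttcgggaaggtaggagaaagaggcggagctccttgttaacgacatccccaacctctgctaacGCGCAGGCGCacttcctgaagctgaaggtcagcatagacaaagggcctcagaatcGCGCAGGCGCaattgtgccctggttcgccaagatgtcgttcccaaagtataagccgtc
The NDUFB4 window held 3 matches to the NRF1 motif, that of ATP5MC1 4 CCAAT boxes and 1 E-box, that of NDUFB1 1 CCAAT box, and that of NDUFC1 none of the 6 motifs.

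A RefSeq promoter of 300 bases was found for 62 of the 79 tested members and compared with 27305 promoters of the same length. Those 27305 were not limited to the genes tested here or matched to the members by level. The NRF1 motif stood in 24.2% of the members' promoters and in 6.3% of all promoters. The GABPA motif stood in 18 of the 62 against 10.7% of all, the YY1 motif in 25.8% against 6.1%, and the ESRRA motif in 6.5% against 1.3%. The E-box stood in 11.3% against 7.4% and CCAAT in 33.9% against 35.7%. With ACBI, 26 of these members were called up, 12 down and 24 not at all, and in that order the NRF1 motif stood in 5, 0 and 10 promoters, the GABPA motif in 6, 4 and 8, and the YY1 motif in 5, 2 and 9. The ESRRA motif stood in 2, 0 and 2, the E-box in 0, 2 and 5, and CCAAT in 11, 3 and 7. These are matches of letters, given as a description.

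In vehicle-treated cells, 75 tested members made up between 1.02% and 1.07% of the TMM-scaled library size. This share and the summed levels of complexes leave out the 4 copies and read-throughs. On the per-length scale (CPM per kilobase of merged exons, GENCODE v29), ATP5F1B, the catalytic beta subunit of the ATP synthase, was highest at 724 CPM per kilobase. The next highest in its complex was ATP5ME, a membrane subunit, at 314 CPM per kilobase. In complex IV, COX6A1 (412) and COX8A (344) led, in complex I NDUFS5 (269) and NDUFB10 (199), in complex III UQCRQ (199) and UQCRH (197), and in complex II the flavoprotein SDHA (59.7), all in CPM per kilobase. Exon models with long untranslated parts lower this value, and SDHC, at 15.2 CPM per kilobase, has a merged exon length of 13.6 kilobases. Of the 80 members, 43 have pseudogene models in GENCODE v29, so reads of these genes could have been shared with copies.

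Changes among these genes were mostly small, and ran in both directions. Against DMSO, 17 of the 79 tested members rose and 14 fell with 2-77, 36 rose and 15 fell with ACBI, 13 rose and 20 fell with BD98, 16 rose and 1 fell with P-16, and 18 rose and 6 fell with ENZA (edgeR quasi-likelihood test, adjusted p under 0.05 over 15422 genes). The background over all genes was 20.5% up and 20.2% down with 2-77, 35.4% and 36.6% with ACBI, 24.5% and 24.5% with BD98, 12.4% and 11.6% with P-16, and 18.2% and 18.1% with ENZA. As shares of the members, the rises were 21.5%, 45.6%, 16.5%, 20.3% and 22.8% in the same order, and the falls 17.7%, 19.0%, 25.3%, 1.27% and 7.59%. The median log2 fold change of the members was 0.019 with 2-77, 0.109 with ACBI, -0.026 with BD98, 0.048 with P-16 and 0.049 with ENZA, where the median over all genes lay between -0.008 and 0.001.

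**Figure D1:**
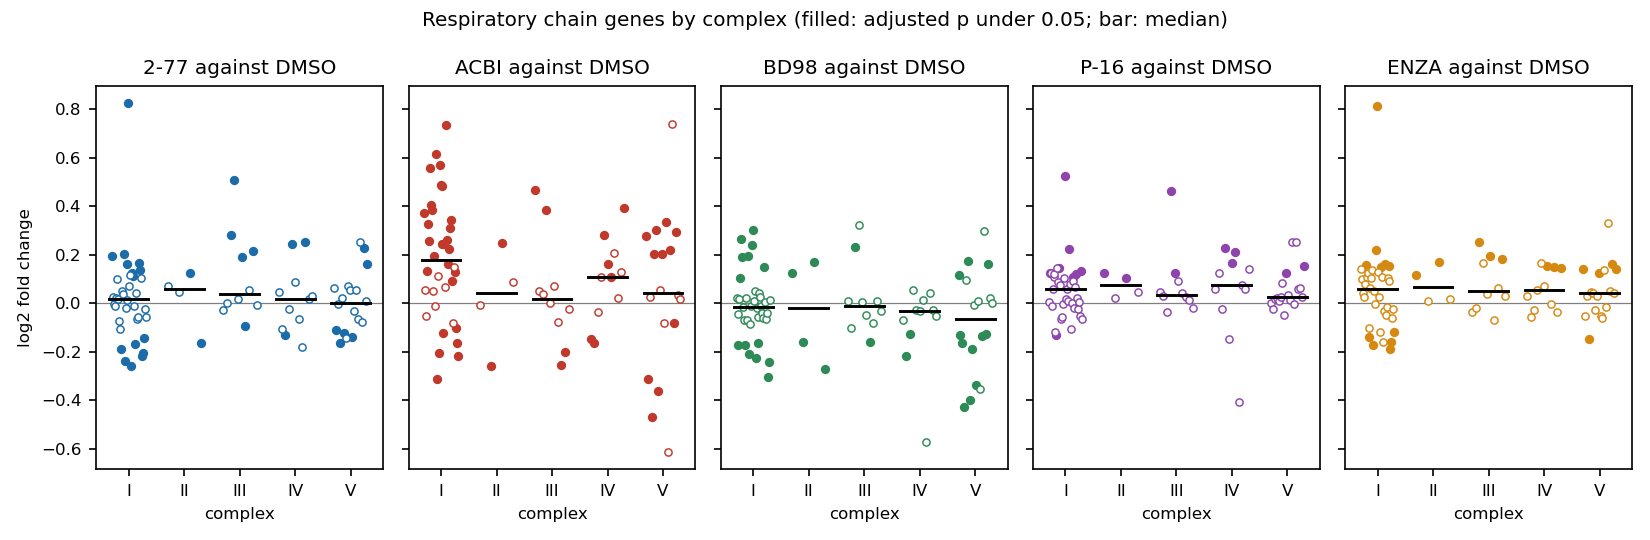
Log2 fold change against DMSO (y axis) of each of the 79 tested members, grouped by respiratory complex (x axis), 1 panel per compound; filled points had an adjusted p under 0.05 and bars mark the median of a complex. Most points lie near 0, NDUFB4 stands at 0.83 with 2-77 and 0.81 with ENZA, and complex I with ACBI has the highest median, 0.18.

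The counts up and down moved with scaling and with single libraries. With library totals in place of TMM factors (the default scaling, which balances most genes) the numbers up and down were 17 and 6 with 2-77, 14 and 9 with BD98 and 16 and 2 with ENZA, and with RLE factors they were 13 and 16 with 2-77. The median with 2-77 was -0.008 without 2-77 replicate 2 and 0.056 without 2-77 replicate 3. The median with BD98 was 0.038 with library totals, beside 0.062 for all genes. For 2-77, the number that fell was 8 without DMSO replicate 1, 6 without DMSO replicate 3 and 7 without 2-77 replicate 3, and the number that rose was 11 without DMSO replicate 2. For P-16, the number that rose was 7 with library totals, 7 without DMSO replicate 2 or P-16 replicate 1 and 9 without P-16 replicate 2. The falls with ENZA, 6 with all libraries, numbered 1 without DMSO replicate 1, 2 without DMSO replicate 3 or ENZA replicate 1, and 3 without ENZA replicate 2 or 3, and the median with ENZA was 0.032 without DMSO replicate 2.

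A larger share of the members than of other genes stayed close to their DMSO level. With ACBI, 67.1% of the members lay within 1.2-fold of DMSO, against 40.1% of the 5128 genes with a mean of at least 50 CPM and 32.4% of all genes tested. With 2-77 the shares were 96.2%, 78.9% and 62.5%, with BD98 86.1%, 68.6% and 56.6%, with P-16 96.2%, 89.5% and 73.1%, and with ENZA 97.5%, 81.5% and 65.8%. Called changes past 1.5-fold were limited to NDUFB4 with 2-77 and with ENZA and to NDUFC1 and NDUFB1 with ACBI, of the 5 comparisons with DMSO.

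**Figure D2:**
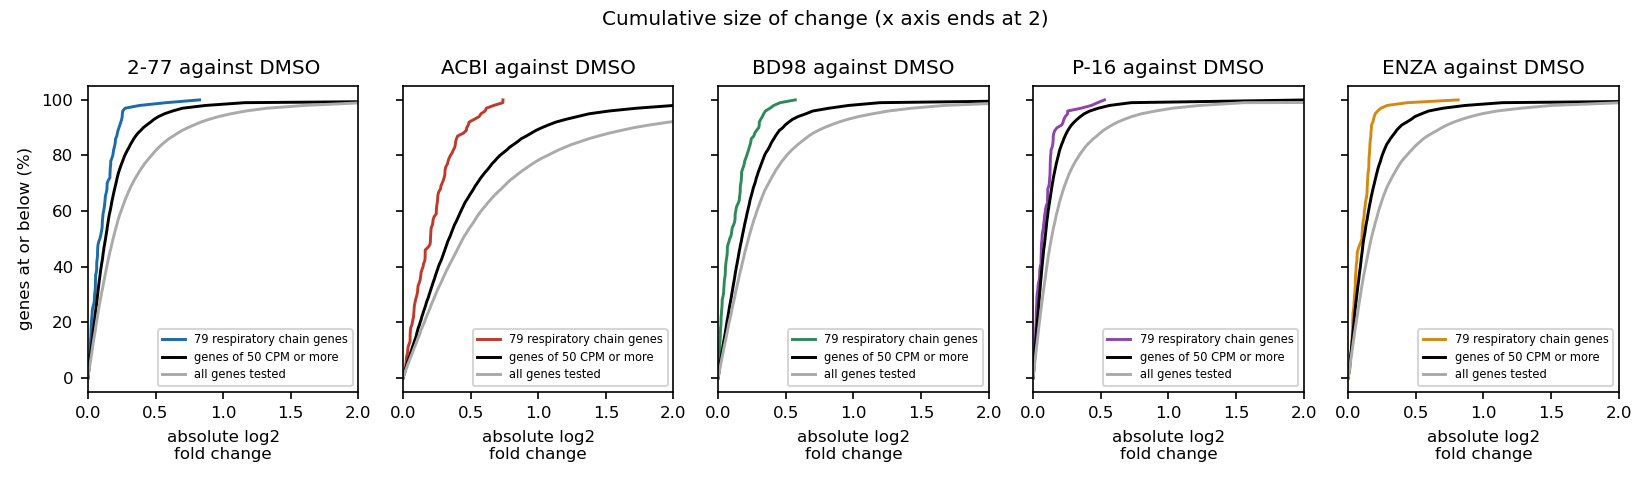
Percentage of genes (y axis) whose absolute log2 fold change against DMSO is at or below the value on the x axis, for the 79 members (coloured), genes with a mean of at least 50 CPM (black) and all genes tested (grey). In each of the 5 panels the line of the members rises earliest over most of its range: at 1.2-fold it stands at 67.1% with ACBI against 32.4% for all genes.

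NDUFB4, an accessory subunit in the membrane arm of complex I (chr3:120596336-120602507, plus strand, hg38), was the member with the largest called change with 2-77, P-16 and ENZA. Its level was 219, 206 and 213 CPM in the 3 DMSO libraries, 382, 391 and 357 with 2-77, 354, 377 and 390 with ENZA, 315, 308 and 296 with P-16, 288, 292 and 316 with ACBI, and 269, 258 and 261 with BD98. None of the 15 libraries of treated cells overlapped DMSO. The log2 fold change was 0.83 ± 0.04 (SE; adjusted p = 1.16e-15) with 2-77, 0.81 ± 0.04 (1.72e-15) with ENZA, 0.53 ± 0.04 (8.4e-11) with P-16, 0.49 ± 0.04 (2.59e-11) with ACBI and 0.30 ± 0.04 (9.56e-07) with BD98. Its promoter, with 3 NRF1 motifs, is among those shown above, and 12 pseudogene models carry its name. NDUFS5, an accessory subunit of complex I, and SDHC, a membrane anchor of complex II, were the other members that rose with all 5 compounds, by 0.09 to 0.15 and 0.11 to 0.25 on the log2 scale. They were singled out after their values were seen, and all 5 comparisons share the DMSO libraries. The P-16 calls of both and the ACBI call of NDUFS5 were lost with library totals and without any 1 of 3 or 4 libraries.

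**Figure D3:**
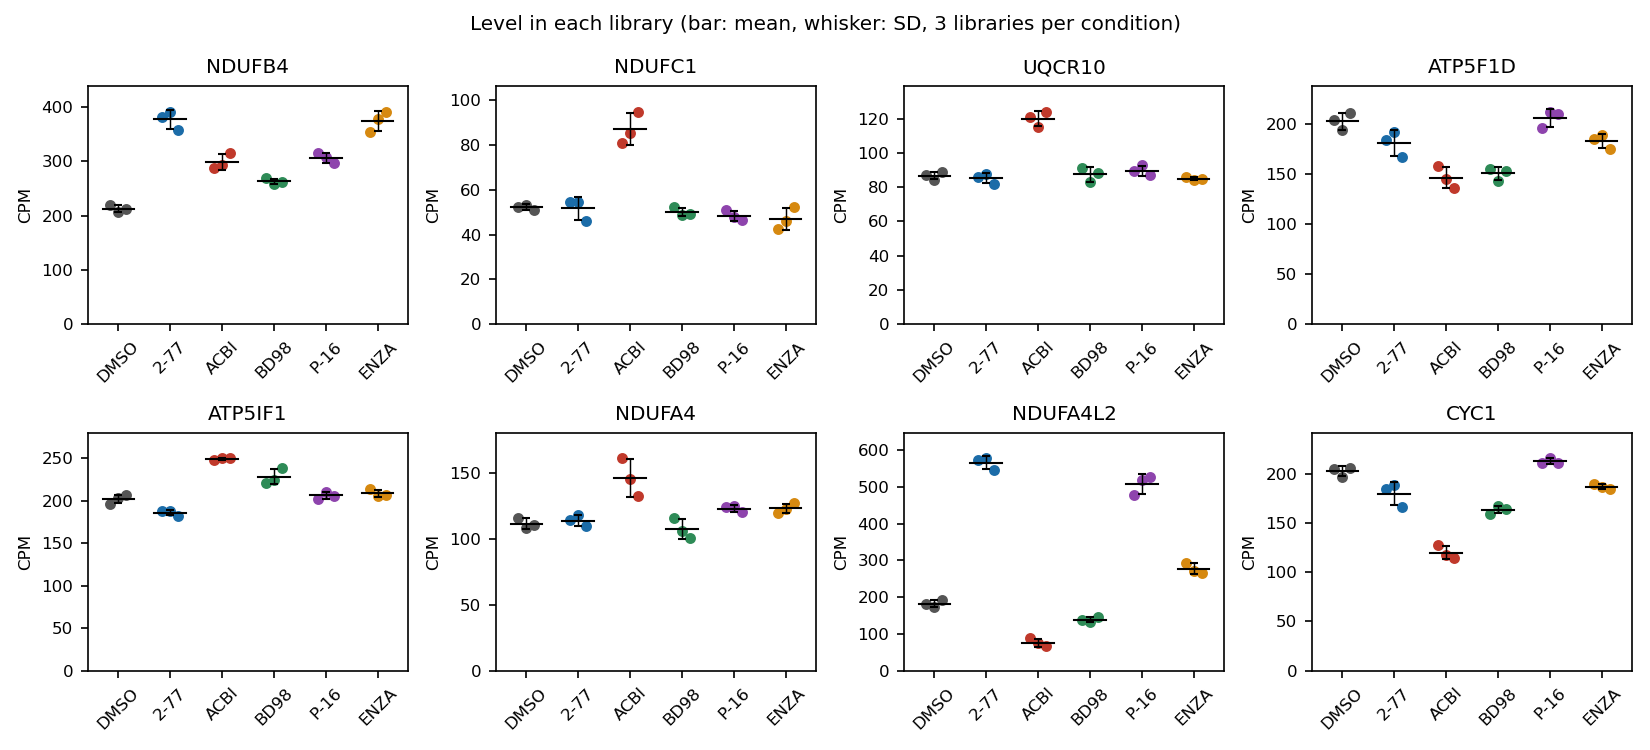
CPM (y axis, from 0) in each of the 3 libraries of the 6 conditions (x axis) for 6 members and for NDUFA4L2 and CYC1, which the symbol rule leaves out; bars are means and whiskers SD. NDUFB4 is higher than DMSO in all 15 treated libraries, NDUFC1 and UQCR10 in the 3 ACBI libraries, and NDUFA4L2 is at 546 to 579 CPM with 2-77 and at 67.2 to 88.4 CPM with ACBI.

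ACBI was the compound with the most rises, and 22 of its 36 rises were in complex I. Of the 36 members of that complex, 22 rose and 6 fell, beside 35.4% of all genes up and 36.6% down. The median log2 fold change of the complex was 0.18, and its summed level was 11.9% above DMSO. The sum lay between 3598 and 3618 CPM in the ACBI libraries and between 3152 and 3265 CPM with DMSO, with no overlap. The rises were in the accessory subunits (18 of 29 up, 4 down) and the Q module, which passes electrons to ubiquinone (3 of 4 up, none down), while in the N module, which oxidises NADH, NDUFS1 rose and NDUFV1 and NDUFV2 fell. The call of NDUFV1 (-0.10, adjusted p = 0.0226) was lost without ACBI replicate 3 (-0.05, adjusted p = 0.217). Without ACBI replicate 3, 24 members of complex I rose and 4 fell, and over all complexes 40 rose and 12 fell, with a median of 0.164. Of the 51 members called with all libraries and the 52 called without it, 46 were shared.

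NDUFC1, a small membrane-arm subunit (chr4:139289917-139302551, minus strand), showed the largest called rise with ACBI. Its level was 80.8, 85.1 and 94.8 CPM with ACBI and 52.4, 53.3 and 50.7 CPM with DMSO, and the other compounds stood between 42.3 and 54.7 CPM. The log2 fold change was 0.74 ± 0.07 (adjusted p = 1.63e-09). NDUFB1, another small subunit of that arm, was at 66.7, 76.5 and 74.4 CPM against 47.6, 46.3 and 47.8 CPM, a log2 fold change of 0.62 ± 0.06 (adjusted p = 5.1e-11). NDUFB3 (0.57), NDUFA3 (0.56), NDUFB4 (0.49) and NDUFB5 (0.48) followed, each with 3 ACBI libraries above 3 DMSO libraries. Against this direction, NDUFB10 was at 144, 139 and 134 CPM with ACBI and 170, 169 and 178 CPM with DMSO, a log2 fold change of -0.31 ± 0.05 (adjusted p = 1.17e-06).

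Outside complex I, calls with ACBI were fewer and ran both ways, beside 35.4% of all genes up and 36.6% down. In complex II, SDHC rose (0.25 ± 0.03) and SDHB, the iron-sulfur subunit, fell (-0.26 ± 0.05), while SDHA (-0.01) and SDHD (0.09) did not pass the test. In complex III, 2 of 10 rose and 2 fell: UQCR10, a small subunit near cytochrome c1, was at 121, 115 and 124 CPM with ACBI and 87.3, 84.5 and 88.6 CPM with DMSO (0.47 ± 0.04, adjusted p = 1.45e-10). UQCRBP1, a pseudogene of UQCRB at 4.93 to 6.41 CPM, was the other rise (0.39), with libraries that overlapped DMSO, and UQCRH and UQCRHL were the falls. In complex IV, 4 of 11 rose and 2 fell, and 6 rose and 1 fell without ACBI replicate 3. NDUFA4, the largest of these rises, was at 162, 145 and 133 CPM against 116, 108 and 111 CPM (0.39 ± 0.06, adjusted p = 6.24e-07), and COX5A (-0.15 ± 0.05) and COX5B (-0.16 ± 0.05) fell. The call of COX5B was lost without ACBI replicate 3 or DMSO replicate 3.

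In complex V, genes of the F1 head and of the c-ring changed in both directions with ACBI. Of 18 members, 7 rose and 4 fell, beside 35.4% of all genes up and 36.6% down. The summed level of the 16 members without ATP5MGL and ATP5MF-PTCD1 was 0.264% below DMSO. The catalytic ATP5F1B fell from 1375, 1299 and 1320 CPM to 1099, 1082 and 1035 CPM (-0.31 ± 0.03, adjusted p = 1.72e-09). Its partner in the catalytic ring, ATP5F1A, rose from 729, 705 and 705 CPM to 868, 873 and 850 CPM (0.28 ± 0.03, adjusted p = 1.03e-08). ATP5F1D, the delta subunit of the central stalk (chr19:1241751-1244825, plus strand), fell by 0.47 ± 0.05 on the log2 scale (adjusted p = 5.12e-08), from 203, 194 and 211 CPM to 158, 145 and 136 CPM. Of the 3 genes that encode the same mature c-ring protein, ATP5MC1 fell (-0.36 ± 0.06), ATP5MC3 rose (0.21 ± 0.04) and ATP5MC2 was at 0.05 ± 0.05. ATP5IF1, which inhibits the enzyme when it runs in reverse, rose from 197, 203 and 207 CPM to 248, 250 and 250 CPM (0.30 ± 0.03, adjusted p = 6.37e-09).

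With BD98, complex V held the most falls. Of its 18 members, 8 fell and 3 rose, beside 24.5% of all genes in each direction. The summed level of the 16 members without ATP5MGL and ATP5MF-PTCD1 was 4.3% below DMSO on the TMM scale. TMM factors were 1.03 to 1.05 in the BD98 libraries and 0.993 to 0.999 with DMSO, and the sum was not computed with library totals. With library totals, 14 members of all complexes rose with BD98 and 9 fell. ATP5F1D was at 155, 143 and 153 CPM (-0.43 ± 0.05, adjusted p = 6.93e-07), ATP5MC1 at 45.5, 42.4 and 43.1 CPM against 60.6, 55.8 and 56.5 CPM with DMSO (-0.40 ± 0.06, adjusted p = 2.25e-06), and ATP5ME at 93.0, 87.7 and 91.7 CPM against 117, 111 and 116 CPM (-0.34 ± 0.05, adjusted p = 2.11e-06). In each, the BD98 libraries lay below those of DMSO. ATP5IF1 rose (0.17 ± 0.03). In complex I, 7 rose and 7 fell: besides NDUFB4, NDUFA2 rose (0.27), and the N-module genes NDUFV1 (-0.30 ± 0.04) and NDUFV2 (-0.24 ± 0.04) fell. All 4 genes of complex II passed the test, SDHA (0.12) and SDHC (0.17) up, and SDHB (-0.16) and SDHD (-0.27) down. The call of SDHA was lost without DMSO replicate 2 or BD98 replicate 3, and that of SDHB without DMSO replicate 1 or BD98 replicate 1. No member of complex IV rose and 2 of 11, COX5B (-0.22) and COX6A1 (-0.13), fell. With library totals the calls of COX6A1 and SDHB were lost.

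With 2-77, rises and falls were near in number in complex I (8 and 7 of 36), and in complex III 4 of 10 rose and 1 fell. Over all genes, 20.5% rose and 20.2% fell. NDUFB7 (-0.26 ± 0.05), NDUFB10 (-0.24 ± 0.05) and NDUFS8, an iron-sulfur subunit of the Q module (-0.20 ± 0.06), fell, the last call being lost without DMSO replicate 3. UQCRB, which lies near the ubiquinone site of complex III, was at 174, 166 and 169 CPM against 140, 143 and 135 CPM with DMSO (0.28 ± 0.05, adjusted p = 0.000157). UQCRC2, a core subunit, rose by 0.19 ± 0.04. UQCRBP1 (0.51 ± 0.16) and UQCRHL (0.22 ± 0.05) were the other rises in complex III, the former lost without DMSO replicate 2, and UQCRFS1, the Rieske iron-sulfur protein, was the fall, a call lost with library totals and without any 1 of 4 libraries. COX7C, a small subunit of complex IV, was at 309, 307 and 284 CPM against 259, 246 and 250 CPM (0.25 ± 0.04, adjusted p = 1.11e-05). In complex V, ATP5PD of the peripheral stalk rose (0.23 ± 0.05), and ATP5IF1 was at 188, 187 and 183 CPM, below the 3 DMSO libraries (-0.12 ± 0.03, adjusted p = 0.00594), a call lost without DMSO replicate 3. ATP5F1D was at 184, 191 and 167 CPM (-0.17 ± 0.05, adjusted p = 0.017), a call lost with library totals and without DMSO replicate 3 or 2-77 replicate 3.

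With P-16, 16 members rose across the 5 complexes and NDUFA6 alone fell, beside 12.4% of all genes up and 11.6% down. The rises numbered 7 with library totals or without DMSO replicate 2. After NDUFB4 and UQCRBP1 (0.46, a call lost without any 1 of 4 libraries), the largest called rises were COX6B1 (0.23 ± 0.06), NDUFB8 (0.22 ± 0.05) and COX7B (0.21 ± 0.05). COX7B, an X-linked subunit of complex IV, was at 119, 115 and 108 CPM against 99.5, 96.0 and 99.1 CPM with DMSO. NDUFA6, at the matrix arm of complex I, was at 55.2, 54.8 and 56.9 CPM against 62.2, 60.7 and 59.9 CPM (-0.13 ± 0.05, adjusted p = 0.0395), and its call was lost without any 1 of the 6 libraries, in the block fit and with DESeq2. ATP5F1D, which fell with the other 4 compounds, was at 196, 212 and 210 CPM, a log2 difference of 0.02 with a 95% interval from -0.09 to 0.13.

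With ENZA, complex I held 6 rises and 5 falls among its 36 members, beside 18.2% of all genes up and 18.1% down. Each of complexes II to V held between 2 and 4 rises. UQCRB (0.25 ± 0.05, adjusted p = 0.000604) and UQCRC2 (0.20 ± 0.04, adjusted p = 0.000116) rose in complex III, COX7B (0.15 ± 0.05) in complex IV and ATP5PD (0.16 ± 0.05) in complex V. The call of COX7B was lost without DMSO replicate 2 or ENZA replicate 1, and that of ATP5PD without DMSO replicate 3 or ENZA replicate 2 or 3. NDUFS1, which carries iron-sulfur clusters of the N module, rose by 0.16 ± 0.03 (adjusted p = 0.00026). NDUFS7 (-0.19 ± 0.07) and NDUFB10 (-0.17 ± 0.05) had the lowest called values, and the call of NDUFS7 was lost without any of 5 of the 6 libraries in turn.

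Across the 5 compounds, 40 members were called only up, 22 only down, 8 in both directions and 9 never. How many of all genes had these patterns was not counted, and the 5 comparisons share the DMSO libraries. ATP5F1D and NDUFB10 fell with 2-77, ACBI, BD98 and ENZA, the ENZA call of ATP5F1D being lost with library totals and without any 1 of 4 libraries. NDUFB3 and ATP5PD rose with those same 4 compounds, and NDUFB8 with all but BD98. The 8 called in both directions were ATP5IF1, ATP5MG, NDUFA6, NDUFB9, NDUFC2, NDUFS8, NDUFV2 and UQCRHL. ATP5IF1 fell with 2-77 and rose with ACBI and BD98. Of the 9 never called, COX8A, UQCRQ, UQCR11, NDUFB11, NDUFS6 and ATP5PF are regular subunits, COX7B2 is a low isoform, and ATP5MGL and ATP5MF-PTCD1 are a copy and a read-through. Without ACBI replicate 3, COX8A (0.21, adjusted p = 0.00165) and NDUFB11 (0.14, 0.0186) were called up with ACBI, and ATP5MF-PTCD1 (-0.82, 0.0345) down.

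Per library, the median difference of the 79 members from their DMSO means was between -0.039 and 0.026 (log2 CPM) within DMSO itself. It was 0.088 to 0.125 with ACBI, 0.041 to 0.056 with P-16 and 0.040 to 0.066 with ENZA, with no overlap with DMSO. With 2-77 it ran from -0.044 to 0.063 and with BD98 from -0.060 to -0.008, overlapping DMSO in both. ACBI had the highest mean level in 37 members and BD98 the lowest in 25, and the same was not counted over all genes. The 2-77 libraries spread widest, with replicate 3 below the other two.

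**Figure D4:**
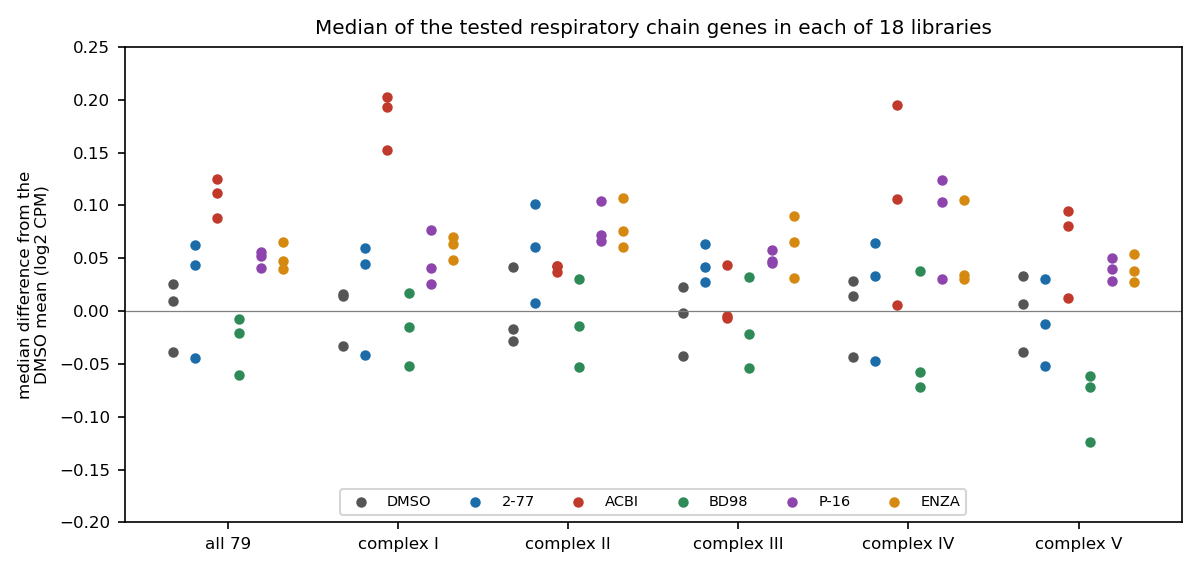
Median over members of the log2 CPM difference from the DMSO mean (y axis) in each of 18 libraries, for all 79 tested members and for each complex (x axis); each point is 1 library. In complex I the ACBI libraries stand at 0.153 to 0.202, above the other 15 libraries, and in complex V the BD98 libraries stand lowest, at -0.124 to -0.062.

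Paralogs and isoforms were read side by side. NDUFA4L2, a hypoxia-inducible relative of NDUFA4 that the symbol rule leaves out, moved further than any member with 2-77, P-16 and ACBI. It was at 182, 173 and 191 CPM with DMSO, 575, 579 and 546 with 2-77, 478, 519 and 527 with P-16, 294, 272 and 265 with ENZA, 137, 133 and 147 with BD98, and 88.4, 74.3 and 67.2 with ACBI. Its log2 fold change was 1.64 ± 0.08 with 2-77, 1.48 ± 0.08 with P-16, 0.60 ± 0.08 with ENZA, -0.39 ± 0.08 with BD98 and -1.25 ± 0.08 with ACBI, with adjusted p = 4.89e-11, 4.65e-10, 1.01e-05, 0.000582 and 4.42e-10 in that order. NDUFA4 itself rose with ACBI (0.39), the compound with which NDUFA4L2 fell most. With 2-77 NDUFA4 was at 114, 118 and 110 CPM, overlapping DMSO (0.03).

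CYC1, the cytochrome c1 subunit of complex III, was at 205, 196 and 205 CPM with DMSO and 128, 117 and 115 CPM with ACBI (-0.75 ± 0.04, adjusted p = 1.11e-15). It also fell with BD98 (-0.31), 2-77 (-0.17) and ENZA (-0.11), the last call being lost with library totals and without any 1 of 5 libraries. CYCS, cytochrome c, fell with ACBI (-0.35 ± 0.13) and BD98 (-0.39 ± 0.14), calls that were lost without DMSO replicate 1 or 2 and in the fit with the replicate number as a block (adjusted p = 0.0526 and 0.0502). COX4I1, the common form of subunit 4 of complex IV, rose with P-16 (0.10 ± 0.03, adjusted p = 0.0337) and ENZA (0.11 ± 0.03, adjusted p = 0.0105), the former call being lost with library totals and without any 1 of 5 libraries and the latter without ENZA replicate 1. It was at -0.02 with ACBI, -0.03 with BD98 and 0.05 with 2-77, none past the test. UQCRH, the hinge protein of complex III, was at 119 ± 7.55 CPM (SD, n = 3) with DMSO and its intronless copy UQCRHL at 114 ± 2.07 CPM. Their reads could have been split between them, so both values are uncertain. Among complex IV isoforms, COX7B2 was at 1.33 CPM with DMSO where COX7B was at 98.2 CPM, with exon models of 0.664 and 3.02 kilobases.

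Direct comparison of 2-77 with each other compound was made at the doses used, which differ. Against ACBI, 17 members were higher with 2-77 and 35 lower, where 36.8% and 33.4% of all genes were; with library totals the numbers were 20 and 22. Of the 35, 23 were of complex I. ATP5IF1 (-0.42 ± 0.03, adjusted p = 5.1e-12), UQCR10 (-0.49 ± 0.04, 3.66e-11) and NDUFA6 (-0.49 ± 0.04, 5.52e-11) were lower with 2-77, and UQCRHL (0.42), NDUFB4 (0.34) and UQCRH (0.31) were higher. Without ACBI replicate 3 the numbers were 17 and 38. The median was -0.09, and -0.05 without 2-77 replicate 3.

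Against BD98, 22 members were higher with 2-77 and 5 lower, where 20.7% and 21.3% of all genes were; library totals gave 14 and 9. NDUFB4 (0.52 ± 0.04, adjusted p = 3.56e-11), NDUFB9 (0.27 ± 0.04) and UQCRC2 (0.24 ± 0.04) were higher, and ATP5IF1 (-0.30 ± 0.03, adjusted p = 4.65e-08), NDUFC2 (-0.21 ± 0.04) and NDUFA2 (-0.17 ± 0.05) were lower. The call of NDUFA2 was lost, and the 5 lower members numbered 2, without 2-77 replicate 3 or BD98 replicate 3. Against P-16, 7 were higher and 17 lower, where 10.6% and 11.8% of all genes were; library totals gave 8 and 11. NDUFB4 (0.30), UQCRB (0.32) and COX7C (0.18) were higher with 2-77, and COX7B (-0.28), NDUFB7 (-0.27) and NDUFA7 (-0.33) lower.

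Against ENZA, 0 members were higher with 2-77 and 5 lower, where 2.94% and 2.6% of all genes were. At an unadjusted p under 0.05 the numbers were 2 and 10, and DESeq2 called 0 and 6. The 5 were COX7B (-0.22 ± 0.05), ATP5IF1 (-0.17 ± 0.03), NDUFC2 (-0.14 ± 0.04), ATP5PB (-0.13 ± 0.03) and NDUFS1 (-0.12 ± 0.03). They numbered 2 without 2-77 replicate 1 or 2 or ENZA replicate 2, 3 without ENZA replicate 1 or 3, and 4 without 2-77 replicate 3, where 2 members were called higher. For NDUFB4 the difference between 2-77 and ENZA was 0.01 with a 95% interval from -0.07 to 0.10. For NDUFA4L2 it was 1.03 (0.87 to 1.19, adjusted p = 1.35e-07), while between 2-77 and P-16 it was 0.16 (-0.00 to 0.31, adjusted p = 0.154).

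Genes that build, feed and regulate the chain are described next, from lists of related genes. With ACBI, NDUFAF4, an assembly factor of complex I, was at 119, 124 and 143 CPM against 24.8, 22.1 and 21.7 CPM with DMSO (2.50 ± 0.07, adjusted p = 1.22e-23). CMC2, linked to complex IV assembly, was at 276, 284 and 279 CPM against 55.9, 53.2 and 54.1 CPM (2.36 ± 0.05, adjusted p = 4.84e-27). LRPPRC, which stabilises mitochondrial messenger RNA, fell by 1.07 on the log2 scale. By list, beside a background of 35.4% up and 36.6% down over all genes, 4 of 18 complex I assembly factors rose and 9 fell, 8 and 8 of 24 for complex IV, which is near that background, 1 and 4 of 6 for complex III, and 4 and 0 of 5 for complex V, where ATPAF2 rose most (0.41). The other compounds moved CMC2 the other way, by -0.14 to -0.58.

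Of 7 genes for ADP/ATP carriers, the phosphate carrier and VDAC pores, which pass substrates across the mitochondrial membranes, 6 fell and 1 rose with ACBI. SLC25A5 was at 143, 146 and 140 CPM against 355, 342 and 338 CPM (-1.27 ± 0.04, adjusted p = 1.52e-22), SLC25A6 fell by 0.65, and SLC25A4, the heart and muscle form, rose by 0.45. In the citric acid cycle and pyruvate list, 5 of 18 rose and 10 fell, among them PC, pyruvate carboxylase (-1.47), and IDH2 (-0.97). Among 21 electron carriers and coenzyme Q genes, 6 rose and 10 fell, with SQOR, a sulfide oxidoreductase, at 1.57 and PDSS1, of coenzyme Q synthesis, at -1.55. The background for these lists was 35.4% of all genes up and 36.6% down, and differences from it were not tested.

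Of 19 nuclear regulators and mitochondrial DNA maintenance genes, 2 rose and 10 fell with ACBI. TWNK, the mitochondrial helicase, was at 10.9, 11.4 and 10.3 CPM against 34.3, 31.9 and 35.9 CPM (-1.65 ± 0.07). ESRRG (1.85) and PPARGC1A (-1.22) passed the test at levels of 3.69 CPM or less. NRF1 (-0.90 ± 0.07) and ESRRA (-0.86 ± 0.05), named since their motifs were searched in the promoters, fell with ACBI and with BD98 (-0.43 and -0.30), and ESRRA also with 2-77 (-0.26) and ENZA (-0.20). GABPA and YY1, searched in the same way, did not pass the test with any of the 5 compounds. GABPA was at 0.25 ± 0.11 with ACBI (adjusted p = 0.0537) and between -0.13 and 0.04 with the others, and YY1 lay between -0.10 and 0.01. Among the 75 mitochondrial ribosomal proteins, 13 rose and 40 fell with ACBI and 3 rose and 23 fell with 2-77. Of 83 cytosolic ribosomal protein genes, 2 rose and 78 fell with ACBI, and 28 rose and 5 fell with 2-77. The background was again 35.4% up and 36.6% down with ACBI and 20.5% and 20.2% with 2-77. The respiratory subunits stood at 36 rises and 15 falls with ACBI, and the difference between lists was not tested.

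**Figure D5:**
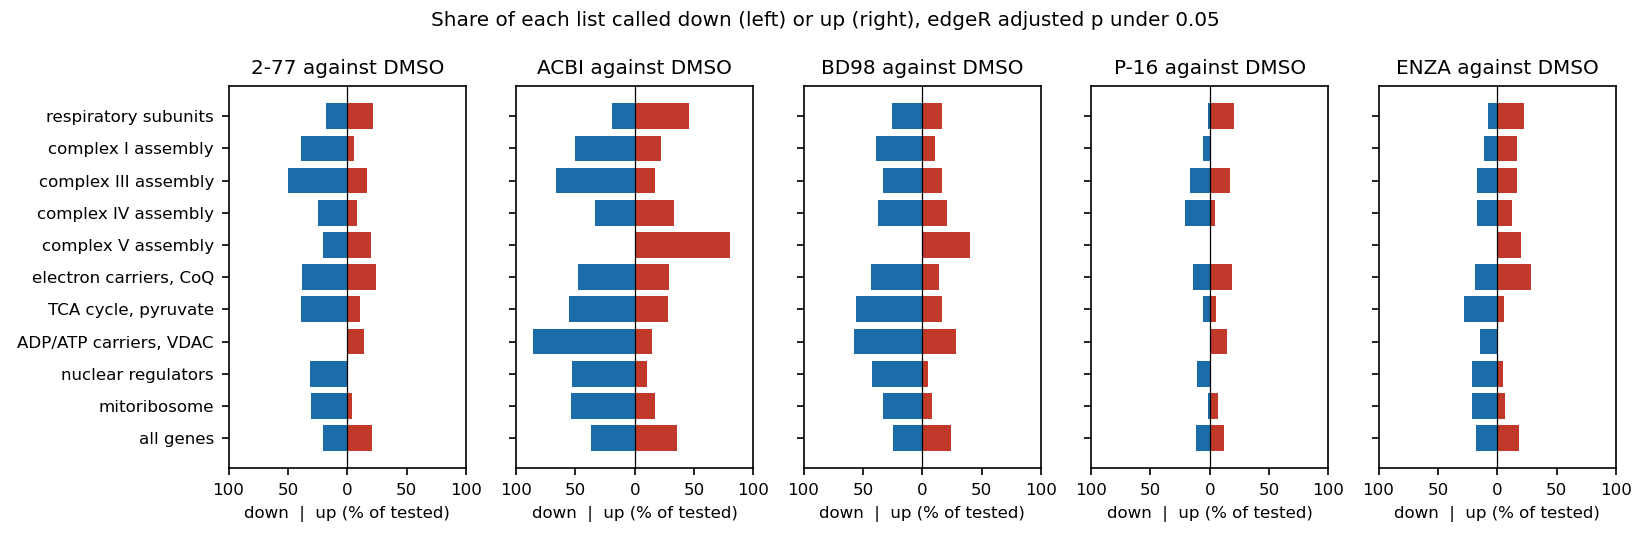
Percentage of each list (rows) called down (blue, to the left) or up (red, to the right) against DMSO, 1 panel per compound, with all genes in the last row. With ACBI, 45.6% of respiratory subunits were called up, while 6 of 7 carriers and 10 of 19 nuclear regulators were called down. Of all genes, 35.4% were called up and 36.6% down with ACBI.

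The mean profile of the members over the 6 conditions was compared with 10204 other genes of at least 10 CPM. CRAT, carnitine acetyltransferase, was most alike (Pearson r = 0.992 over 6 condition means), followed by EID1 (0.987), DUSP14 (0.985), TRAF4 (0.982) and RCAN3 (0.979). Of the members themselves, 38 had an r above 0.5 with the mean of the others and 13 an r below 0, lowest for NDUFV3 (-0.952) and NDUFB2 (-0.710). The points share libraries and scaling, so these values describe the conditions and carry no test.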

How the data were processed

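Messenger RNA of LNCaP cells was sequenced from 18 libraries (6 groups of 3) made with a stranded poly(A) kit, per the labels' protocols. The authors deposited a table of estimated counts per gene, with decimals, for 20145 genes; STAR, Partek, DESeq2 and hg38 are named in the submitters' processing notes, without versions. The counting program and annotation are not given in the sources used here. Estimated counts were rounded to whole numbers. Genes with low counts were removed by edgeR's filterByExpr (4723 removed, 15422 tested). Libraries were scaled by TMM factors, and all 18 were fitted together by group with edgeR's robust quasi-likelihood test (12 residual degrees of freedom), with Benjamini-Hochberg adjustment over all 15422 genes and a threshold of 0.05. CPM values are counts scaled by library size and TMM factor, and ± marks the SE of a log2 fold change unless SD is named. Confidence intervals of differences are at 95% and, like floors of 3 counts, carry no allowance for duplicate reads.

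The members and the lists of related genes were chosen with earlier results of these data known. Named genes are, for each compound and complex, the called members with the largest rise and fall, the 5 with the smallest p in each direction, and a panel of isoforms, c-ring genes, SDH genes, CYC1, CYCS and ATP5IF1; for related lists, at most the 3 called genes with the largest change; other names are singled out as such or were added after their values were seen. The script was tested on simulated counts. Exon lengths came from GENCODE v29 and promoters from RefSeq on GRCh38.p14. Columns were matched to samples by title, 2 of the compounds being spelled differently in the table. Tools were R 4.3.3, edgeR 4.0.16, limma 3.58.1, DESeq2 1.42.0, Python 3.11.15 and matplotlib 3.10.9. Alternatives were RLE factors, library totals, no filter, a filter of 1 CPM in 3 libraries, a replicate block, removal of ribosomal RNA genes, a fit of only the 2 groups compared, DESeq2 and leaving out each library.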

Additional observations from a re-analysis of the deposited data

How the results depend on the processing

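Over the counts and medians of the members in 9 comparisons, 325 values under the alternatives stayed close to the main value and 53 moved. The median changed sign with library totals for BD98 and for 2-77 against BD98, and without 2-77 replicate 2 for 2-77. The side with more calls turned with library totals for BD98, from 13 up and 20 down to 14 and 9, and for 2-77 with RLE factors (13 and 16), DESeq2 (13 and 15) and without DMSO replicate 2 (11 and 14), the numbers being equal (14 and 14) with the replicate block. Of the values of named genes, 2329 kept their side of the threshold, 162 lost their call and 15 gained one. None that was called in either fit changed direction, and values called in neither fit were not checked for direction. With library totals alone, the falls numbered 6 with 2-77, 9 with BD98 and 2 with ENZA, and the rises 7 with P-16. The medians were then 0.0699 with ACBI, 0.0381 with BD98 and 0.0365 with P-16. For 2-77 against the other compounds, library totals gave 22 lower and a median of -0.0411 against ACBI, 14 higher, 9 lower and a median of -0.000154 against BD98, 11 lower against P-16 and 2 lower against ENZA. Of the 33 members called with BD98 under TMM factors, 22 were also called with library totals. Without a filter, the falls numbered 0 with P-16 and 3 with ENZA, and 3 members were lower with 2-77 than with ENZA. The single fall with P-16 became 2 in a fit of only the 2 groups and 0 with DESeq2. Leaving out 1 library at a time gave 11 to 17 rises and 6 to 14 falls with 2-77, 7 to 14 rises and 0 falls with P-16 and 1 to 5 falls with ENZA. The medians then ran from -0.00760 to 0.0558 with 2-77, -0.0351 to -0.0141 with BD98, 0.0905 to 0.164 with ACBI, 0.0323 to 0.0610 with P-16, 0.0323 to 0.0638 with ENZA and -0.123 to -0.0526 for 2-77 against ACBI. In the same fits, 2 to 5 members were lower with 2-77 than with BD98, and 0 to 2 were higher and 2 to 4 lower than with ENZA. The cause of these moves was not tested, beyond the smaller number of libraries in the fits that leave 1 out. With library totals the median over all genes also moved, by 0.0637 with BD98 and by -0.0501 for 2-77 against BD98. The members' median less that of all genes was -0.0237 with TMM factors and -0.0234 with library totals for BD98. For 2-77 against BD98 it was 0.0577 with either scaling.

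The labels give each group the replicate numbers 1 to 3. Deviations from the group means correlated above 0.1 in 1 of 45 same-number pairs over all genes (median r = -0.00109) and in 13 of 45 over genes of at least 50 CPM, a check added after the data were seen. No group pair had all 3 above 0.1 over all genes. Over genes of at least 50 CPM, 1 of 15 did, 2-77 with ACBI (r = 0.465, 0.578 and 0.738, against 0.0726, 0.0511 and 0.193 over all genes). With the replicate number as a block, the single fall with P-16 was 0 falls, and 17 members were higher and 35 lower with 2-77 than with ACBI, as without the block. Depth limits the members at low level, COX6B2, COX7B2 and ATP5MGL, where a few counts set the value.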
